A study of Mus musculus with 6 samples.

Results

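The 10 sensory neuropeptide genes described here were Calca, Calcb, Tac1, Adcyap1, Sst, Nppb, Nts, Npy, Vip and Cck. They were picked by symbol from the deposited table of L4/5 dorsal root ganglia (DRGs), the lumbar ganglia whose sensory neurons send axons into the sciatic nerve, and all 10 were found among the 24623 genes tested. Adult male wild-type C57BL/6 mice aged 8 to 12 weeks received 100 mg/kg LBP, an extract of polysaccharides from wolfberry, by mouth for 13 days, or PBS as the vehicle, and the sources describe no nerve injury for these samples. RNA of 3 LBP-treated and 3 PBS-treated samples was read on GeneChip Mouse Gene 2.0 ST arrays, 1 array per sample. The treatment protocol in the labels mentions LBP alone for all 6 samples, and the titles, which give PBS for 3 of them, were followed. The methods speak of 3 groups with 3 mice per group and do not say whether an array pooled mice, so that p-values measure the spread between these samples. The comparison asks which neuropeptide genes differed between DRGs of LBP-treated and PBS-treated mice.

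Sensory neurons make neuropeptides as larger precursors, cut them with prohormone convertases and store the products in dense-core vesicles, which are released both in the dorsal horn of the spinal cord and from endings in skin and viscera. Calca and Calcb encode the alpha and beta forms of calcitonin gene-related peptide (CGRP), a strong vasodilator, and Calca also encodes calcitonin by alternative splicing. Tac1 encodes substance P and neurokinin A, and Adcyap1 encodes PACAP. Sst, Nppb and Nts encode somatostatin, B-type natriuretic peptide and neurotensin, which mouse single-cell studies place in a class of itch-sensing neurons. Npy, Vip and Cck encode neuropeptide Y, vasoactive intestinal peptide and cholecystokinin, which are known from the rat to rise in DRG neurons after axotomy.

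Several of these genes are textbook targets of the transcription factor CREB, which binds the cAMP response element (CRE). RefSeq promoter sequences (build GRCm38.p6, 250 bases before to 50 after the start) matched 9 of the 10 genes, all but Calcb, and were searched on both strands for the CRE half-site TGACG, the full CRE TGACGTCA, which holds the half-site on either strand, and the E-box CACGTG. The first promoter listed of 7 of the 9 genes held a half-site, as did 20.8% of all 32851 promoters in the set. Sst alone of the 9 held the full CRE, at -48 from its start, found in 1.79% of all promoters. Tac1 and Cck held the E-box, found in 7.15% of all promoters, and Npy and Nppb held neither site. The stretches before the start of Sst and Cck are shown in full because these genes had the smallest p between the groups among those with a promoter sequence, beside 90 bases around the half-site of Vip, Adcyap1, Calca and Tac1. Capitals mark the sites, and each line reads 5′ to 3′ on the strand of the gene.
Sst, chr16:23890845-23891094, minus strand: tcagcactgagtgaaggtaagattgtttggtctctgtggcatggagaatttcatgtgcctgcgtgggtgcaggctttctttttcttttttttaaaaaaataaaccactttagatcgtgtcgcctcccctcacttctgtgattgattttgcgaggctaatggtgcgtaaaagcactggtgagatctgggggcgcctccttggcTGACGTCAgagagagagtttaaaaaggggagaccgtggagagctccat
Cck, chr9:121495695-121495944, minus strand: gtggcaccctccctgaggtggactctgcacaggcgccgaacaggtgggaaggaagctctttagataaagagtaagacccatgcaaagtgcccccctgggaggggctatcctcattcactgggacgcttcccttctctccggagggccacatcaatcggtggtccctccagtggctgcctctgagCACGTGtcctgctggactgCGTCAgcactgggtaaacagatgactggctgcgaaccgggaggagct
Vip, chr10:5639098-5639187, plus strand: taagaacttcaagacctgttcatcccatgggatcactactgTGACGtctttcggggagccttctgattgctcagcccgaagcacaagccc
Adcyap1, chr17:93198897-93198986, plus strand: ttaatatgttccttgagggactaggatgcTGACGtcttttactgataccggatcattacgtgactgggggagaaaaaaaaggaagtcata
Calca, chr7:114636388-114636477, minus strand: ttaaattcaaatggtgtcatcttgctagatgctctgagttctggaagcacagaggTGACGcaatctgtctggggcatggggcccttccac
Tac1, chr6:7554941-7555030, plus strand: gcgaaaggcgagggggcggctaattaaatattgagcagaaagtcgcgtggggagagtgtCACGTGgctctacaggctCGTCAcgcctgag
A match says only that the letters are there, and no binding was measured.

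The deposited values, taken as log2 intensities from their range, had a median of 6.45 to 6.46 on each array, and arrays correlated pairwise at 0.990 to 0.994 across genes, which are not independent replicates. Prph, Avil, Isl1 and Scn10a, used here as markers of DRG neurons, had PBS means of 11.60, 11.45, 10.46 and 11.89. LBP replicate 2 stood apart in markers of other cells. The median of 18 central nervous system markers lay 0.66 above its PBS mean there, against -0.05 to 0.05 elsewhere, and 13 of the 18 were at their highest there. All 9 Schwann cell and myelin markers were at their highest on that array too, with a median of 0.52 there and of -0.25 to 0.02 elsewhere. Skeletal muscle markers varied as widely in both groups, with a median between -1.11 and 0.07 after LBP and between -0.94 and 0.46 after PBS. For the neuropeptide genes that were lowest or highest on LBP replicate 2, and for the marker lists, values without that array or their range over single arrays left out are given. Microarray intensities of different genes cannot be ordered as RNA amounts, so that levels were compared between samples within a gene. In these bulk samples, fewer cells of a type and less RNA per cell cannot be told apart.

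Calcb and Sst had lower means and Cck had a higher mean after LBP than after PBS at an unadjusted p under 0.05, at 0.806-fold, 0.771-fold and 1.24-fold on the linear scale. Vip also had LBP values that all lay above its PBS values. The other 6 genes had overlapping groups. None of the 10 genes passed the adjustment over all genes, for which adjusted p lay between 0.999 and 1.00 (limma with Benjamini-Hochberg adjustment). Across the table, 2 genes, or 0.00812%, had an adjusted p under 0.05.
An unadjusted p under 0.05 was found for 3 of the 10 genes, 1 higher and 2 lower, against 4.72% of all genes (2.07% higher and 2.65% lower). No overlap between LBP and PBS values was seen for 4 of the 10 genes, 2 higher and 2 lower, against 9.63% of all genes (4.35% higher and 5.28% lower). The count of 3 ranged from 0 without PBS replicate 3 through 1 without PBS replicate 2 to 4 without PBS replicate 1. The median log2 fold change of the 10 genes was -0.08, and that of all genes was -0.0011, with 5 of the 10 positive and 5 negative. Without LBP replicate 2 the median of the 10 genes was 0.08. The smallest two-sided p that exact permutation of 3 against 3 arrays allows is 0.1.

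**Figure D1:**
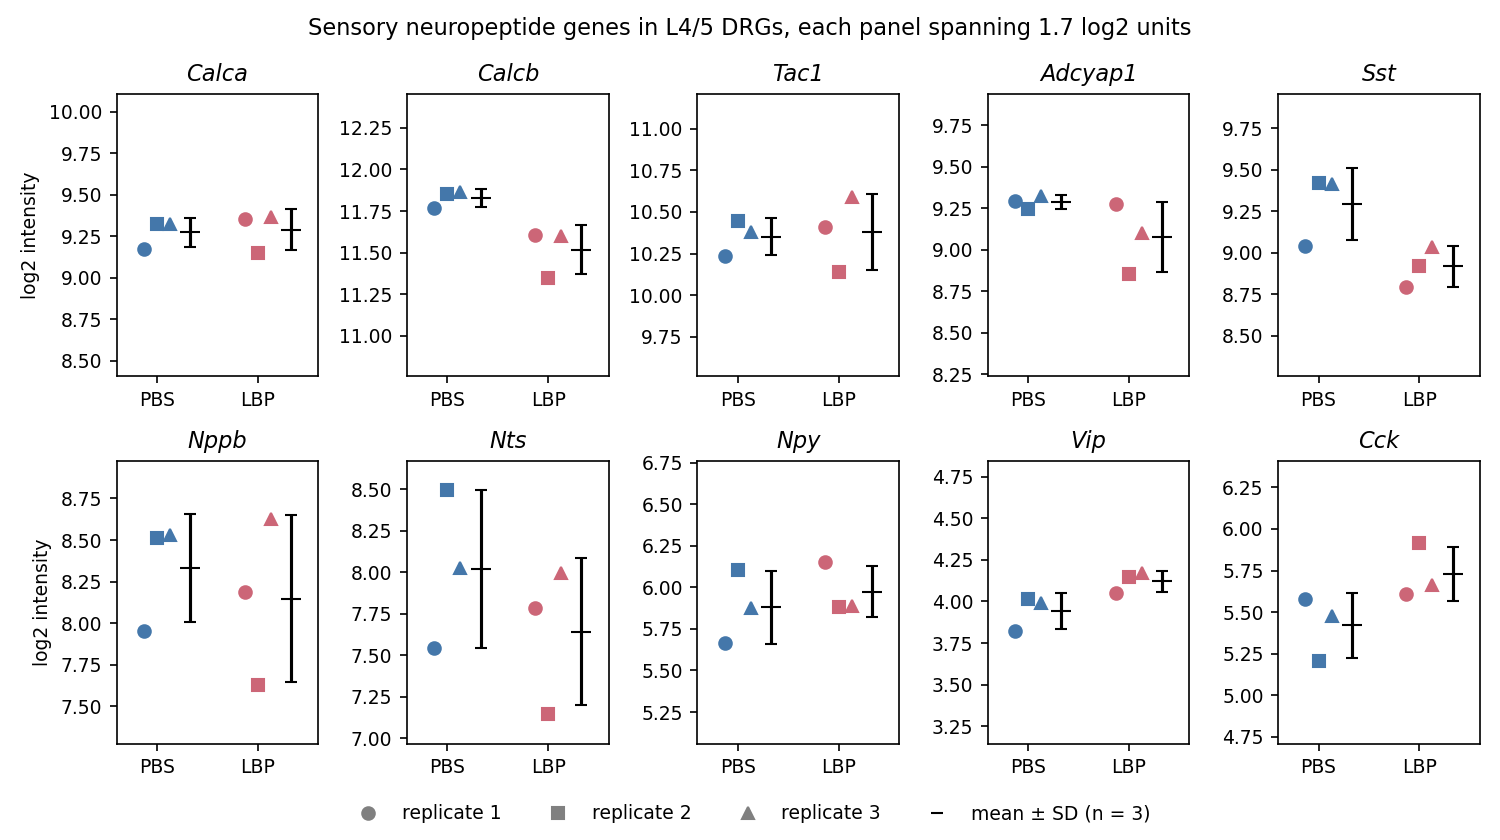
Log2 intensity of each neuropeptide gene on the 3 PBS and 3 LBP arrays (symbols by replicate number, bars for mean ± SD, n = 3), each panel centred on its own gene and spanning the same range. The LBP values of Calcb and Sst lay below, and those of Cck and Vip above, every PBS value, and those of Sst met the PBS values at 9.04.

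Among the peptides of nociceptors, Calcb was lower on every LBP-treated array. Its log2 intensity was 11.60, 11.35 and 11.60 on LBP replicates 1 to 3 and 11.77, 11.85 and 11.86 on PBS replicates 1 to 3. No LBP value reached the lowest PBS value. The means were 11.52 ± 0.15 (SD, n = 3) in LBP-treated DRGs and 11.83 ± 0.05 (SD, n = 3) in PBS-treated DRGs, so that the log2 fold change was -0.31 (standard error 0.11, 95% interval -0.55 to -0.08, p = 0.0147 from limma, exact permutation p = 0.1), or 0.806-fold. LBP replicate 2 was the lowest array, and without it the change was -0.23, still at an unadjusted p under 0.05. Without PBS replicate 3 it was -0.29, and the unadjusted p was just above 0.05. Calcb was among the brightest genes of the table, between the 99.0 and the 99.6 percentile on every array.
Calca, the neighbour of Calcb on chromosome 7 with no protein-coding gene annotated between them, had overlapping groups. Its log2 intensity was 9.35, 9.15 and 9.37 after LBP and 9.17, 9.32 and 9.32 after PBS. The log2 fold change was 0.02 (standard error 0.10, 95% interval -0.21 to 0.25, p = 0.871 from limma, exact permutation p = 0.6), and it was between -0.03 and 0.09 with single arrays left out. The interval does not show that Calca was equal in both groups.
Both CGRP genes moved together from array to array within a group, so that their difference within an array was steadier than either gene. Calca minus Calcb was -2.25, -2.20 and -2.23 on the LBP arrays and -2.59, -2.53 and -2.54 on the PBS arrays. The mean difference was -2.23 ± 0.03 (SD, n = 3) on the LBP arrays and -2.55 ± 0.04 (SD, n = 3) on the PBS arrays, with a gap between the groups' nearest arrays of 0.28 (exact permutation p = 0.1, the smallest possible). The shift of 0.33 is a description of these arrays and does not say that Calca stayed the same. It was computed after the values had been seen, as 1 of 45 pairs of the 10 genes, of which 14 had groups that did not overlap, and it had the largest shift relative to the SD of the pairs. Calca and Calcb are close paralogs whose probes were not examined here, so that the split of their signals is uncertain.

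**Figure D2:**
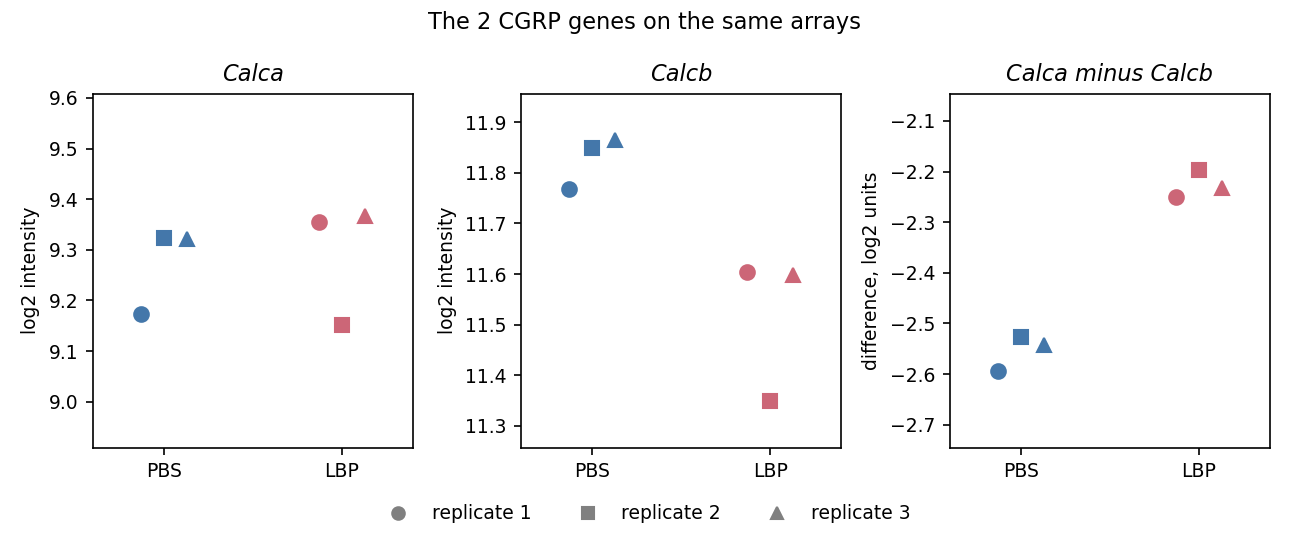
Log2 intensity of Calca and of Calcb, and Calca minus Calcb within each array in log2 units, for the 3 PBS and 3 LBP arrays, all panels spanning the same range. The difference lay between -2.59 and -2.53 on the PBS arrays and between -2.25 and -2.20 on the LBP arrays.

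Tac1, the gene of substance P, showed no difference larger than its spread. Its log2 intensity was 10.41, 10.14 and 10.59 after LBP and 10.23, 10.44 and 10.38 after PBS, and the LBP values enclosed the PBS values. The log2 fold change was 0.03 (standard error 0.13, 95% interval -0.26 to 0.31, p = 0.840 from limma, exact permutation p = 0.9), and it was between -0.08 and 0.15 with single arrays left out.
Adcyap1 had a lower mean after LBP, at 9.27, 8.85 and 9.10 against 9.29, 9.25 and 9.33 after PBS. The PBS arrays were close to each other (SD 0.04, n = 3), LBP replicate 2 was the lowest, and LBP replicate 1 lay within the PBS range. The log2 fold change was -0.21 (standard error 0.12, 95% interval -0.48 to 0.05, p = 0.106 from limma, exact permutation p = 0.2), and without LBP replicate 2 it was -0.10. Without LBP replicate 1 it was -0.31, at an unadjusted p under 0.05.

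Among the peptides of itch neurons, Sst was lower on every LBP-treated array, by a narrow margin. Its log2 intensity was 8.79, 8.92 and 9.04 after LBP and 9.04, 9.42 and 9.42 after PBS. LBP replicate 3 and PBS replicate 1 met at 9.04, and the other 2 PBS arrays lay well above every LBP array. The means were 8.92 ± 0.12 (SD, n = 3) in LBP-treated DRGs and 9.29 ± 0.22 (SD, n = 3) in PBS-treated DRGs, so that the log2 fold change was -0.38 (standard error 0.13, 95% interval -0.66 to -0.09, p = 0.0148 from limma, exact permutation p = 0.1), or 0.771-fold. LBP replicate 2 was not the lowest array for Sst, and without it the change was -0.38. The unadjusted p was above 0.05 without LBP replicate 1, PBS replicate 2 or PBS replicate 3.
Nppb and Nts varied more between samples of a group than nearly all genes, with residual SDs of 0.423 and 0.459 against a median of 0.137 over all genes. Nppb was at 8.19, 7.62 and 8.63 after LBP and at 7.96, 8.51 and 8.53 after PBS. The highest and the lowest arrays were both LBP-treated, and the log2 fold change was -0.19 (standard error 0.24, 95% interval -0.71 to 0.34, p = 0.452 from limma, exact permutation p = 0.7). Without LBP replicate 2 it was 0.08.
Nts was at 7.78, 7.15 and 8.00 after LBP and at 7.54, 8.49 and 8.03 after PBS. LBP replicate 2 was the lowest array and PBS replicate 2 the highest. The log2 fold change was -0.38 (standard error 0.25, 95% interval -0.95 to 0.19, p = 0.167 from limma, exact permutation p = 0.4), and without LBP replicate 2 it was -0.13. Without PBS replicate 1, the lowest PBS array, it was -0.62, at an unadjusted p under 0.05. All 3 itch neuron peptides had their lowest PBS value on PBS replicate 1, which lay 0.25 below the PBS mean for Sst, 0.38 below for Nppb and 0.48 below for Nts in the log2 values. Calca, Calcb, Tac1, Npy and Vip also had their lowest PBS value on that array.

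Among the peptides known to rise after axotomy, Cck and Vip had higher values on every LBP-treated array. Cck was at 5.61, 5.91 and 5.66 after LBP and at 5.58, 5.20 and 5.48 after PBS. It lay between the 27.7 and the 40.5 percentile of the table, below the median of all genes on every array. LBP replicate 1 lay just above PBS replicate 1, the nearest arrays of both groups. The means were 5.73 ± 0.16 (SD, n = 3) in LBP-treated DRGs and 5.42 ± 0.19 (SD, n = 3) in PBS-treated DRGs, so that the log2 fold change was 0.31 (standard error 0.13, 95% interval 0.02 to 0.60, p = 0.0375 from limma, exact permutation p = 0.1), or 1.24-fold. Cck was highest on LBP replicate 2, the array with the high central nervous system markers, and Cck is also expressed in the brain and spinal cord. Without that array the change was 0.22, without PBS replicate 2 it was 0.20 and without PBS replicate 3 it was 0.34, none of them at an unadjusted p under 0.05, and the part of the central nervous system markers in it was not tested.
Vip was dim, below the lower quartile of all genes on every array. It was at 4.05, 4.15 and 4.17 after LBP and at 3.82, 4.02 and 3.99 after PBS, so that the groups were close but did not overlap. The log2 fold change was 0.18 (standard error 0.10, 95% interval -0.04 to 0.40, p = 0.104 from limma, exact permutation p = 0.1).
Npy, which sympathetic neurons also make, had overlapping groups at 6.15, 5.88 and 5.89 after LBP and 5.67, 6.10 and 5.87 after PBS. Npy too lay below the median of all genes on every array. Its log2 fold change was 0.09 (standard error 0.13, 95% interval -0.20 to 0.39, p = 0.497 from limma, exact permutation p = 0.4). Of 15 genes that rise after nerve injury, a list without the members, 7 lay above and 8 below a log2 fold change of 0, the median being -0.03, and at an unadjusted p under 0.05 Crh (0.24) was higher and Gal (-0.54) and Jun (-0.27) were lower. With single arrays left out the median was between -0.08 and 0.01, Jun lost its call without PBS replicate 2, and Crh kept its call without LBP replicate 2 or PBS replicate 2 but not without the other arrays.

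**Figure D3:**
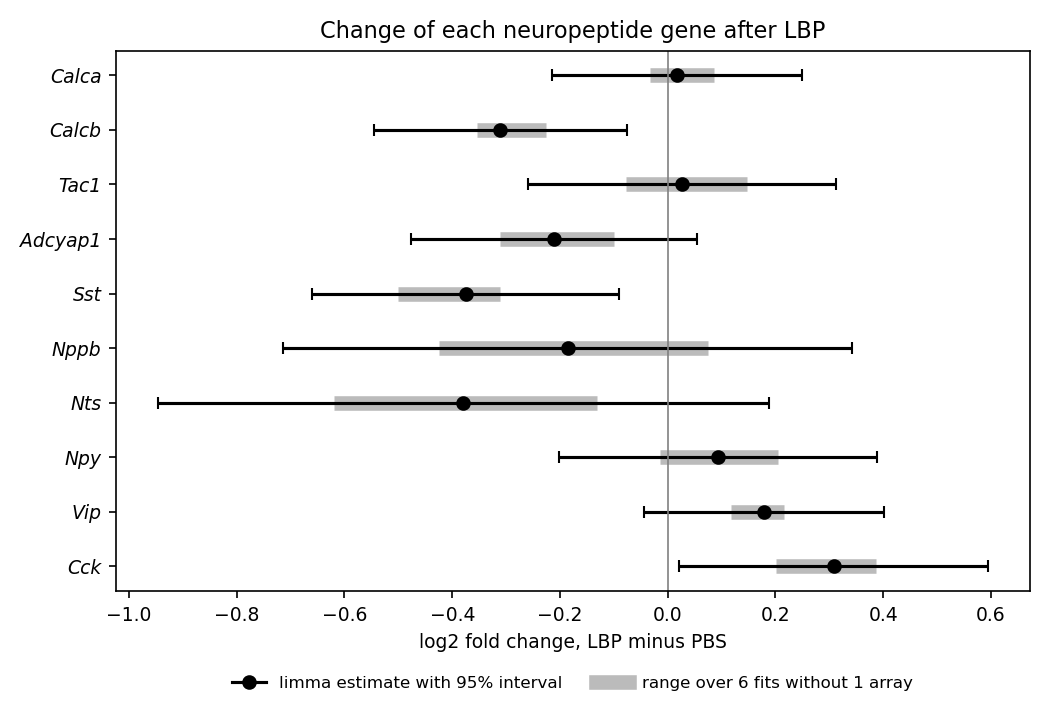
Log2 fold change of each neuropeptide gene, LBP minus PBS, with the limma estimate and its 95% interval (black, n = 3 arrays per group) and the range over the 6 fits that each leave out 1 array (grey). The intervals of Calcb, Sst and Cck do not reach 0, and the grey bars of Calca, Tac1, Nppb and Npy cross it.

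LBP replicate 2 was the lowest array for 6 of the 10 genes, Calca, Calcb, Tac1, Adcyap1, Nppb and Nts, and the highest for Cck. Across all genes that array was the lowest for 19.3% and the highest for 20.1%. Measured from the PBS mean of each gene, the median of the 10 was -0.29 there and ranged from -0.12 to 0.08 elsewhere. The peptides of nociceptors and of itch neurons had medians of -0.32 and -0.71 on LBP replicate 2, whereas Vip and Cck were above their PBS means on all 3 LBP arrays. DRG neuron markers were near their PBS level on that array, with a median of -0.01 over 12 genes. Markers of peptidergic nociceptors and itch neurons had a median of -0.17 there over 16 genes, and markers of non-peptidergic nociceptors one of -0.23 over 14 genes. Both medians were also low on LBP replicate 3, at -0.12 and -0.15. On the remaining arrays they lay between -0.06 and 0.08 and between -0.03 and 0.08. The central nervous system and Schwann cell markers were at their highest on LBP replicate 2, and their part in the low neuropeptide values was not tested.

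**Figure D4:**
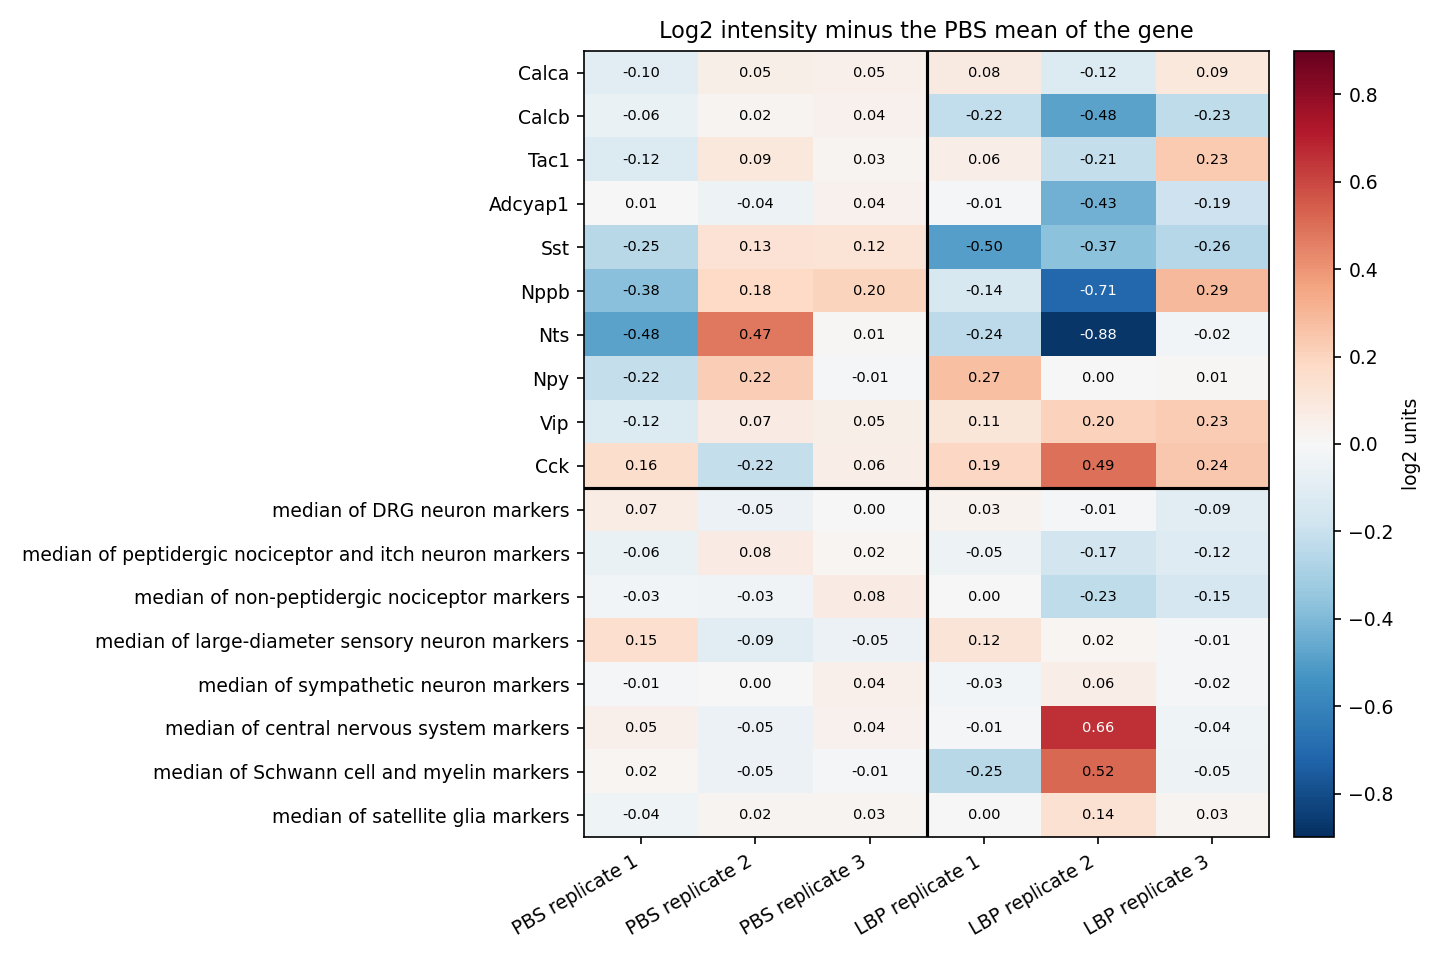
Log2 intensity minus the gene's mean over the PBS arrays, for the 10 neuropeptide genes (upper rows) and as the median over each marker list (lower rows), with 1 column per array. On LBP replicate 2, Nts was at -0.88 and Nppb at -0.71, and the central nervous system markers were at 0.66.

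Nts and Nppb, which of the 10 genes had the largest SD over the 6 arrays (0.460 and 0.392), were compared with every other gene by the root mean square difference of log2 values after each gene was centred on its own mean. Closest to Nts were Olfr988 (0.0942), H2-Q6 (0.154), Mir301b (0.177), Vmn1r151 (0.177) and Nppb (0.189). Closest to Nppb were Rprl2 (0.0650), Gm10436 (0.0764), Top2a (0.0910), Tlcd1 (0.0968) and Sprr2h (0.119). Nppb was thus the fifth closest of all genes to Nts, and Nts was at rank 108 for Nppb. With 6 arrays and 24623 genes, such ranks are a description of these arrays.

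The receptor genes listed for these peptides include those of G protein-coupled receptors and their partners, and of natriuretic peptide receptors. Of 30 receptor genes, 9 lay above and 21 below a log2 fold change of 0, the median being -0.02 (-0.07 to -0.01 with single arrays left out), and 0 passed an adjusted p under 0.05 in limma. At an unadjusted p under 0.05, Npy2r and Cckar were lower and Ntsr2 was higher. Npy2r, the gene of a presynaptic receptor for neuropeptide Y, was at 8.31, 8.05 and 8.19 after LBP and at 8.49, 8.61 and 8.61 after PBS. Its log2 fold change was -0.39 (SE 0.10, limma p = 0.00391, exact permutation p = 0.1, adjusted p = 0.944), and the LBP values all lay below the PBS values. Cckar, which encodes the type A receptor for cholecystokinin, was at 8.54, 8.25 and 8.37 after LBP and at 8.78, 8.78 and 8.72 after PBS, giving -0.37 as log2 fold change (SE 0.10, limma p = 0.00511, exact permutation p = 0.1). The Cck gene itself had the opposite sign. Both receptors kept an unadjusted p under 0.05 with any single array left out. Ntsr2, a neurotensin receptor gene also expressed in astrocytes, was highest on LBP replicate 2 at 8.44, against 7.94 and 7.95 on the other LBP arrays and 7.74 to 7.84 after PBS, and its unadjusted p was not under 0.05 without LBP replicate 2, PBS replicate 2 or PBS replicate 3. For CGRP, the receptor gene Calcrl had a log2 fold change of -0.02 and its partner Ramp1 one of -0.14, and for substance P, Tacr1 had one of -0.02, all with intervals that span 0 and named for their role.

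**Figure D5:**
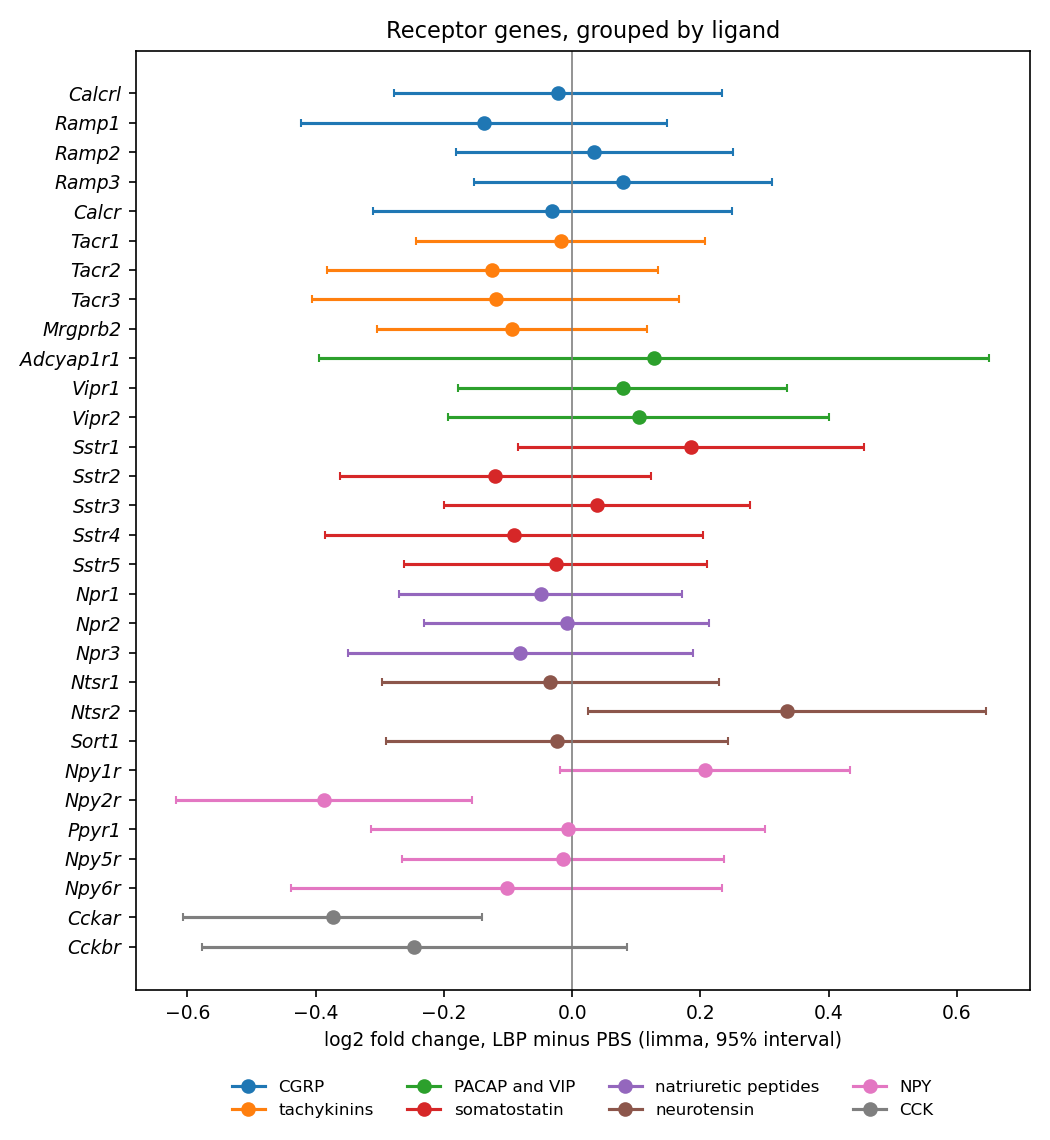
Log2 fold change of 30 receptor genes, LBP minus PBS, with the 95% interval from limma (n = 3 arrays per group), coloured by the ligand that binds them (Ppyr1 is an older symbol of Npy4r). The intervals of Npy2r and Cckar lie below 0 and that of Ntsr2 above it.

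Of 20 genes that process and store neuropeptides, 10 were positive and 10 negative, with a median log2 fold change of 0.00 (-0.05 to 0.01 with single arrays left out). Qpct, which closes the N-terminus of peptides such as neurotensin into pyroglutamate, was lower at 6.03, 6.00 and 6.20 after LBP against 6.31, 6.33 and 6.37 after PBS (log2 fold change -0.26, SE 0.10, limma p = 0.0231, exact permutation p = 0.1), though not at an unadjusted p under 0.05 without LBP replicate 1, LBP replicate 2 or PBS replicate 3. The convertase gene Pcsk1 had a log2 fold change of 0.24 (p = 0.0740 from limma, exact permutation p = 0.2) and the vesicle gene Rab27b one of -0.16 (p = 0.294 from limma, exact permutation p = 0.5). Among 28 other neuropeptide genes measured, 15 were positive and 13 negative, with a median of 0.02 (-0.02 to 0.05 with single arrays left out). At an unadjusted p under 0.05, Penk (0.46), Crh (0.24) and Hcrt (0.21) were higher and Gal (-0.54) and Cartpt (-0.22) were lower, and Hcrt and Cartpt are named here after their values were seen. Gal, which encodes galanin, was at 7.21, 6.88 and 6.90 after LBP and at 7.41, 7.76 and 7.44 after PBS. Penk, the gene of the enkephalins, was at 8.12, 8.42 and 8.71 after LBP and at 7.88, 7.83 and 8.17 after PBS, where the groups overlapped. Of these 5 genes, Gal alone had an unadjusted p under 0.05 with any single array left out.

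Markers of the neurons that make these peptides lay on both sides of 0, 4 above 0 and 12 below, at a median of -0.10 over 16 genes (-0.12 to -0.08 with single arrays left out). Gpr35 (-0.52, p = 0.00523 from limma, exact permutation p = 0.1) and the irritant receptor gene Trpa1 (-0.37, p = 0.0106 from limma, exact permutation p = 0.1) had an unadjusted p under 0.05, and Ptgir was at -0.21 (exact permutation p = 0.3). Of the itch neuron markers, Il31ra had a log2 fold change of -0.26, Osmr one of 0.02 and Cysltr2 one of 0.04. Htr1f of the same list was at -0.17. Each of these genes had overlapping groups and a 95% interval from limma that spans 0, so that a difference in sign between them is not shown. Non-peptidergic nociceptor markers lay above 0 for 2 genes and below it for 12, at a median of -0.17, or -0.07 without LBP replicate 2. Ret (-0.30), Gfra2 (-0.26), Scn11a (-0.24) and Lpar3 (-0.32) had an unadjusted p under 0.05 in limma, and 0 of the 14 did so without LBP replicate 3, PBS replicate 1 or PBS replicate 3. Large-diameter neuron markers lay above 0 for 11 genes and below it for 3, at a median of 0.04 (-0.01 to 0.12 with single arrays left out), Runx3 (0.32), Nefm (0.16) and Ntrk2 (-0.10) having the smallest p. DRG neuron markers were split 6 and 6 with a median of -0.01 (-0.07 to 0.05 with single arrays left out). Prrxl1 (-0.23) was lower at an unadjusted p under 0.05, which it lost without LBP replicate 1 or any 1 of the PBS replicates. Scn10a and Slc17a6 were at -0.14 each. None of these marker genes had an adjusted p under 0.05 in limma.
Sympathetic neuron markers lay above 0 for 6 genes and below it for 4, at a median of 0.02 (-0.02 to 0.04 with single arrays left out). Th was lower (-0.68, p = 0.00122 from limma, exact permutation p = 0.1, adjusted p = 0.870), and Slc6a2 was at -0.21. Th, the gene of tyrosine hydroxylase, is also a marker of touch-sensing DRG neurons. Slc6a2, the noradrenaline transporter gene and a defining sympathetic marker, was at 5.27 to 5.79, below the median of all genes on every array.
For markers of other cells and tissues, the median of the central nervous system markers was 0.28 over 18 genes, or -0.01 without LBP replicate 2. Of these 18, Mog (0.47), Cldn11 (-0.65) and Slc6a11 (0.62) had the smallest p. Mog was at 6.81 on LBP replicate 2 and at 5.64 to 5.88 elsewhere, and Slc6a11 was at 8.30 there and at 6.60 to 7.03 elsewhere. Satellite glia markers had a median of 0.04 over 8 genes (0.00 to 0.07 with single arrays left out), with Cdh19 (0.49) and Kcnj10 (0.29) higher at an unadjusted p under 0.05 and Fabp7 at -0.30, and Kcnj10 lost its call without LBP replicate 2, PBS replicate 1 or PBS replicate 3. Schwann cell and myelin markers had a median of 0.04 (Dhh 0.17, Egr2 0.21), or -0.14 without LBP replicate 2 and 0.18 without LBP replicate 1, and endothelial markers one of 0.06 (Emcn 0.19, Vwf 0.15, Cdh5 -0.17), or 0.03 without LBP replicate 2. Fibroblast markers had a median of -0.16 over 10 genes, with Dpt (-0.40) and Col3a1 (-0.43) lower at an unadjusted p under 0.05 and Col1a1 at -0.40. The median was -0.29 without LBP replicate 2 and -0.06 without LBP replicate 1, and Col3a1 lost its call without LBP replicate 1 or PBS replicate 2. Macrophage markers had a median of -0.09 (Cx3cr1 -0.24, Aif1 -0.20, Mrc1 -0.17), or -0.16 without LBP replicate 2, 0.02 without LBP replicate 1 and 0.03 without PBS replicate 2. Skeletal muscle markers had a median of -0.44 (Myh2 0.36, Myh4 -1.53, Ckm -0.34), which was -0.10 once LBP replicate 2 was left out and -0.72 once LBP replicate 1 was. Leaving out PBS replicate 1, 2 or 3 gave -0.26, -0.93 and -0.17. Their part in the neuropeptide values was not tested.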

How the data were processed

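RNA of L4/5 DRGs from 3 LBP-treated and 3 PBS-treated samples was hybridised to GeneChip Mouse Gene 2.0 ST arrays. The authors deposited intensities, 1 value per gene symbol, which were taken as log2 intensities because they ranged from 2.02 to 13.8. The methods describe MAS5 through the expresso function, then omission of outlier arrays by their correlation with the others, then quantile normalisation. They name no omitted array. No source used here gives the MAS5 version, the genome build or the rule from probes to genes. Quantile normalisation gives all arrays the same distribution, so that a shift of all genes cannot be seen. Groups were taken from the sample titles. The 24 symbols turned into dates were left out, as were 3 columns that compare single arrays and the columns of fold changes and p-values from the authors' own comparisons.

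Each of 24623 genes was fitted on the 6 arrays with limma 3.58.1 (lmFit, eBayes) in R 4.3.3, with Benjamini-Hochberg adjustment over all genes, and the fit was tested on simulated data. Exact permutation tests were two-sided. The 3 arrays per group limit the precision. The members and 16 gene lists were chosen with earlier results of these data known. Named were all members, any list gene at an adjusted p under 0.05, the 3 genes of each list with the smallest p, the 5 genes most like the 2 members with the largest SD, and the markers Prph, Avil, Isl1 and Scn10a. Further genes were named for their role or after their values were seen. Spx and Ncmap, which belong to these lists, were not found under these symbols among the 24623 genes and were not analysed here. Some genes that the rule names are not reported here. Alternatives were a replicate block, leaving out each array, leaving out dim genes, a variance prior with trend and robust fit, median centring, repeated quantile normalisation and array weights. Promoters were searched with Python 3.11.15.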

Additional observations from a re-analysis of the deposited data

How the results depend on the processing

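In the values as reported, 2 genes of the whole table had an adjusted p under 0.05. There were 4 with the replicate number as a block, 4 with dim genes left out, 6 with a variance prior with trend and robust fit, 4 with array weights, and 1 to 2 when single arrays were left out. No neuropeptide gene was among them under any of the 12 alternatives, where the lowest adjusted p of a neuropeptide gene was 0.651 (Sst, array weights, limma). The count of neuropeptide genes at an unadjusted p under 0.05 was 0 to 4 when single arrays were left out, and 2 (Calcb and Sst) both with the replicate block and with array weights, where the unadjusted p of Cck was above 0.05. Their median log2 fold change was -0.15 to 0.0811 when single arrays were left out. Calcb, Adcyap1, Sst, Nts, Vip and Cck kept their sign under all alternatives that gave a value. Vip was too dim for the fit without dim genes. Calca (-0.0323 to 0.0869), Tac1 (-0.0775 to 0.147), Nppb (-0.425 to 0.0754) and Npy (-0.0142 to 0.205) changed sign with the array left out, and the cause was not tested. The replicate numbers of both groups share only a number: deviations of same-numbered arrays correlated at 0.11, -0.03 and 0.08 across genes for replicates 1 to 3. No background signal was used here, so that the distance from background is not known for dim genes such as Vip, nor for Cck and Npy.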
